A study of Mus musculus with 4 samples.

Results

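The integrin and laminin chains are the 34 genes, 24 integrin and 10 laminin, whose symbols matched the naming pattern of integrin α and β subunits (Itga, Itgb) or of laminin α, β and γ chains (Lama, Lamb, Lamc), out of 18193 named genes on the array. Each gene was read by its brightest probe set, the one with the highest mean over the 4 arrays. The cells were mouse embryonic fibroblasts (MEFs) undergoing reprogramming toward a pluripotent state, sorted after fixation and staining for the reprogramming factors Oct4 and Klf4 and the epithelial surface protein EpCAM. The 4 fractions were Oct4+Klf4+EpCAM+ (the EpCAM-positive array), Oct4+Klf4+EpCAM-negative (the EpCAM-negative array), Oct4+Klf4-negative (the Klf4-negative array) and Oct4-negative cells, with 1 array each. The labels name no gate on EpCAM for Klf4-negative cells and none on Klf4 for Oct4-negative cells. They also leave unsaid the strain and age of the embryos, the delivery method, the day of reprogramming, and whether Oct4-negative cells and the other fractions came out of 1 culture.

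Integrins are surface receptors made of 1 α and 1 β subunit, which tie the extracellular matrix to the actin or keratin cytoskeleton. The α subunit largely sets the ligand: collagens, laminins, proteins with an RGD motif such as fibronectin, or the LDV-type sites of fibronectin and vascular adhesion molecules. Laminins are trimers of an α, a β and a γ chain and form the network of basement membranes, on which epithelia rest. Fibroblasts in culture typically use collagen and fibronectin receptors, whereas the α6β4 integrin is known from the hemidesmosomes of epithelia.

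All values are log2 levels, and with 1 array per fraction no difference could be tested. A member was called higher or lower in a pair of arrays past a 2-fold difference, provided that its brighter reading reached the floor of 4.53, the median of all values. Of the 34 members, 21 reached the floor on at least 1 array, 14 integrin and 7 laminin chains, and those below it are described as such. Folds are lower bounds, written "at least", if the dimmer reading was no higher than 2.94, the background ceiling, which is the top reading among 27 dim bacterial control probe sets. In sorted populations read as bulk RNA, fewer cells of a type and less RNA per cell cannot be told apart.

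The arrays had similar medians, between 4.49 and 4.55. Pou5f1, which encodes Oct4, lay between 11.48 and 11.70 on the Oct4-positive arrays and at 7.59 on the Oct4-negative one. Epcam was at 9.52 on the EpCAM-positive array and between 4.63 and 6.54 on the others. Klf4, by its brightest probe set, was at 10.60 and 10.20 on the Klf4-positive arrays and at 6.24 and 7.32 on the Klf4-negative and Oct4-negative ones. The Gapdh control probe sets at the 3′ and 5′ ends of the transcript, a sign of RNA quality, differed by 0.97, 1.04, 1.30 and 1.04 on the EpCAM-positive, EpCAM-negative, Klf4-negative and Oct4-negative arrays. The matching Actb control probe sets differed by -0.065, -0.057, -0.051 and -0.059 in the same order, with no larger gap on the Klf4-negative array. The larger Gapdh gap of the Klf4-negative array stands beside each of its values below, and its part in them was not tested.

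Itga1, Itga8 and Lama2 peaked on the Klf4-negative array, more than 2-fold above both the EpCAM-negative and the Oct4-negative array. For Itgb4, Lama3, Itgb7, Itgb3, Itga6 and Itga7 both Klf4-positive arrays lay above both others. That arrangement held for 28.6% of the members at the floor and for 37.3% of all such genes. The called chains Itga3, Itga4, Lama4, Lama5, Lamb1 and Lamb2 had neither pattern. The widely used chains Itgb1, Itgav, Itga5, Itgb5 and Lamc1 stayed within 2-fold over all 4 arrays by their brightest probe sets. Between Oct4+Klf4-negative and Oct4-negative cells, called the Oct4 step, 5 of the 21 members at the floor were higher and 4 lower, where 3.59% of the 11428 genes at the floor were higher and 4.84% lower. Between Oct4+Klf4+EpCAM-negative and Oct4+Klf4-negative cells, the Klf4 step, 6 chains were higher and 4 lower, where 8.44% of all genes were higher and 6.88% lower. Between Oct4+Klf4+EpCAM+ and Oct4+Klf4+EpCAM-negative cells, the EpCAM step, 0 were higher and 1 was lower, where 3.11% of all genes were higher and 1.79% lower. Between Oct4+Klf4+EpCAM+ and Oct4-negative cells, called the ends here, 5 were higher and 3 lower, where 11.9% of all genes were higher and 10.8% lower. Each difference is the first-named fraction minus the second, and the comparisons share arrays.

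The members moved in both directions. Their median lay close to that of all genes at the Oct4 step and further from it in the other comparisons. The median log2 difference of the 21 members was 0.01 at the Oct4 step, where that of all 11428 genes was 0.02. It was 0.23 at the Klf4 step (all genes 0.04), -0.10 at the EpCAM step (all genes -0.000824) and -0.37 between the ends (all genes 0.07). In at least 1 of the 4 comparisons 15 of the 21 members were called, where 28.2% of all genes were. Both Klf4-positive arrays lay above both others for 6 members, and below both others for 8. These are 28.6% and 38.1% of the members, where the arrangements held for 37.3% and 28.4% of all genes.

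**Figure D1:**
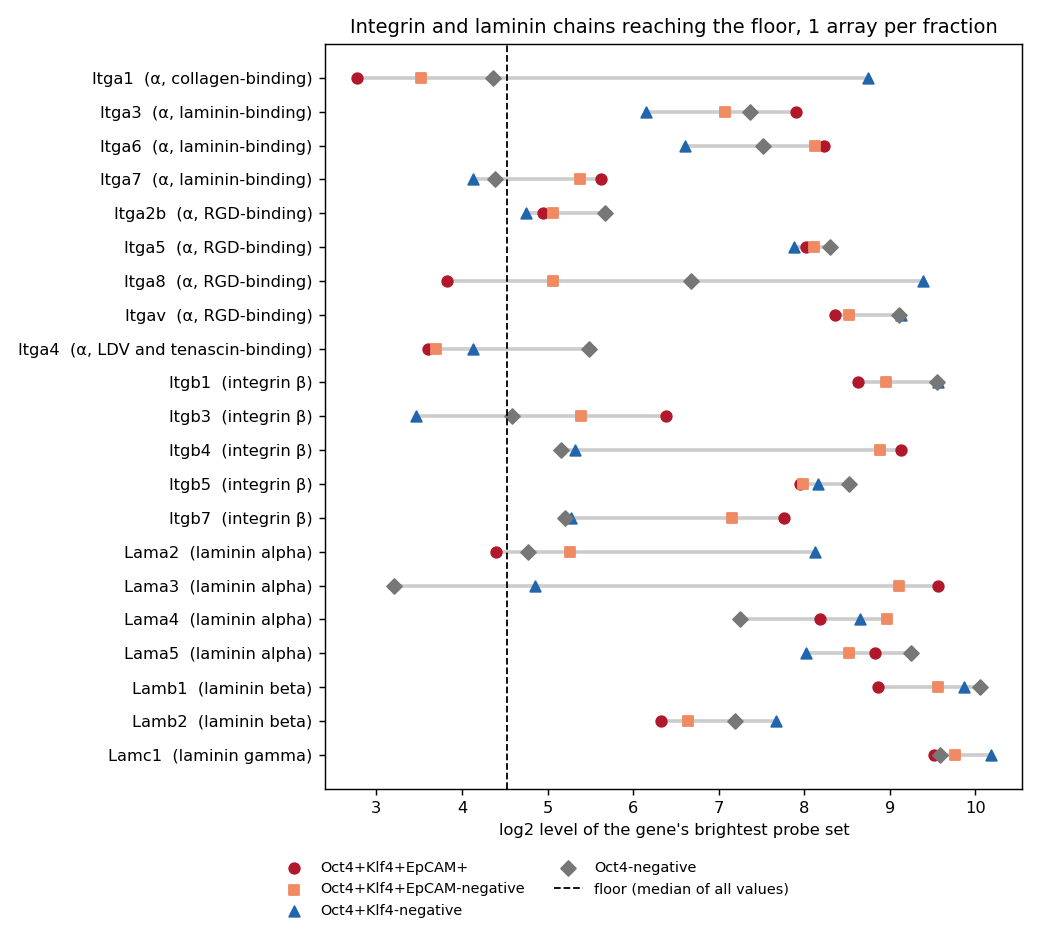
Log2 level (horizontal axis) of each of the 21 integrin and laminin chains reaching the floor, with 1 point per fraction and array. Itga1, Itga8 and Lama2 have their highest point on the Oct4+Klf4-negative array, while Itgb4, Itgb7 and Lama3 have both Oct4+Klf4+ points far above the other two.

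**Figure D2:**
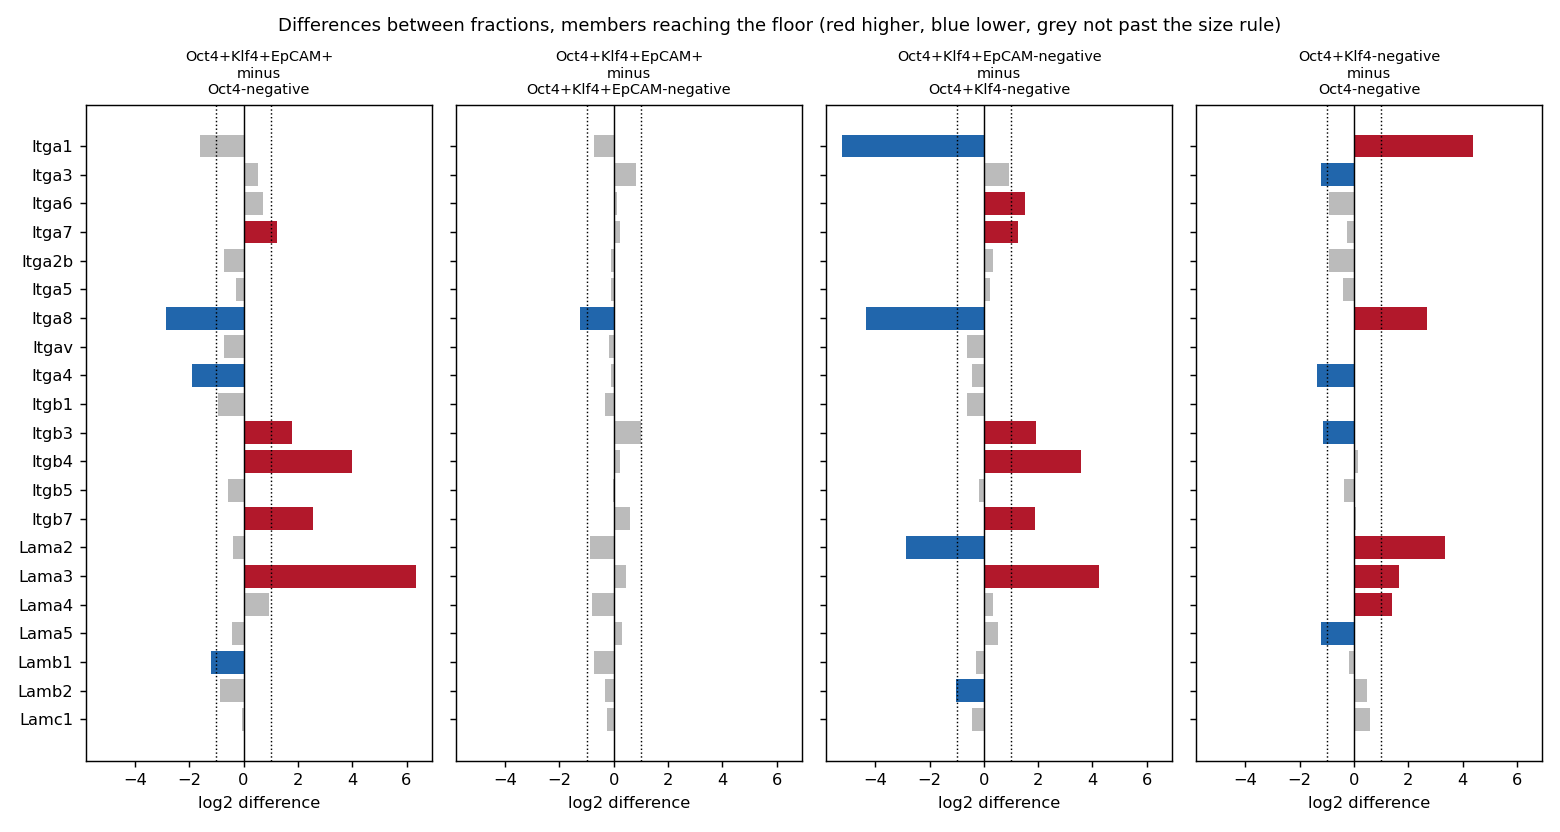
Log2 difference (horizontal axis) of the same 21 chains in 4 comparisons of 2 arrays each, with dotted lines at 2-fold. The longest bars are those of Lama3 between the ends (6.36) and of Itga1 at the Klf4 step (-5.23), and the EpCAM step holds a single called chain, Itga8.

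Among the laminin-binding subunits, the β4 chain stood apart. Itgb4, the partner of α6 in hemidesmosomes, whose long tail reaches the keratin network, had levels of 9.13 on the EpCAM-positive array, 8.89 on the EpCAM-negative array, 5.32 on the Klf4-negative array and 5.15 on the Oct4-negative array. Both Klf4-positive arrays were high and both others low, and Itgb4 was 11.9-fold higher at the Klf4 step and 15.8-fold higher between the ends. Its α partner Itga6 had levels of 8.23, 8.12, 6.60 and 7.52 on the EpCAM-positive, EpCAM-negative, Klf4-negative and Oct4-negative arrays. Itga6 was thus lowest in Oct4+Klf4-negative cells, 2.87-fold higher at the Klf4 step, and 1.64-fold higher between the ends, short of the size rule. Both chains of α6β4 reached the floor on every array.

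Of the other laminin receptors, Itga3 also dipped in Oct4+Klf4-negative cells, while Itga7 was low on the Klf4-negative and Oct4-negative arrays alike. Itga3, which pairs with β1 in contacts with laminin of epithelia, had levels of 7.91 on the EpCAM-positive array, 7.07 on the EpCAM-negative array, 6.15 on the Klf4-negative array and 7.37 on the Oct4-negative array. It was 2.32-fold lower in Oct4+Klf4-negative than in Oct4-negative cells. Its other 2 probe sets, which are not marked as reading several transcripts, gave larger differences, -2.43 and -2.35 at the Oct4 step and 2.02 and 1.95 at the Klf4 step, where the brightest gave -1.22 and 0.92. Itga7, a laminin receptor best known from skeletal muscle, had levels of 5.62, 5.38, 4.13 and 4.39 on the EpCAM-positive, EpCAM-negative, Klf4-negative and Oct4-negative arrays, and was 2.38-fold higher at the Klf4 step. Its level reached the floor on the Klf4-positive arrays alone. Of 8 skeletal muscle markers, 2, 2, 0 and 1 reached the floor on the arrays in that order, with summed linear levels of 107, 117, 89.5 and 81.9, and Myog, Myf5, Actc1 and Chrna1 lay at or below the background ceiling on all 4. Des, the muscle filament desmin, had levels of 5.05, 5.65, 4.51 and 4.61 on the same arrays and was 2.21-fold higher at the Klf4 step, as Itga7 was, and the part of this list in the Itga7 values was not tested.

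Of the hemidesmosome partners of α6β4, 5 of 6 on the array reached the floor. At the Klf4 step 20% of these were called, where 15.3% of all genes were, with 1 higher and 0 lower. That gene was Krt14, a keratin of basal epidermis, 8.54-fold higher at the Klf4 step and 27.8-fold higher between the ends. Krt5, another keratin of the list and also a keratinocyte marker, lay between 4.62 and 4.93 and was called in no comparison. Plec, the plectin that links β4 to keratin, was 2.08-fold lower at the Oct4 step and 1.82-fold higher at the Klf4 step, short of the size rule. Dst and Cd151, a linker and a tetraspanin of the same structure, varied by at most 1.36-fold and 1.15-fold at the 3 steps. Col17a1, the transmembrane collagen of hemidesmosomes, did not reach the floor anywhere, with a highest level of 3.72. Of 9 keratinocyte markers on the array, 6 reached the floor on each Klf4-positive array and 3 on each of the others, and their summed linear levels were 6943, 4665, 972 and 1349 on the EpCAM-positive, EpCAM-negative, Klf4-negative and Oct4-negative arrays. Krtdap and Pkp1, a secreted protein and a desmosome protein of keratinocytes, were higher at the Klf4 step by log2 differences of 4.15 and 4.62, beside 3.57 for Itgb4 and 4.25 for Lama3, and the part of this list in those values was not tested. Trp63, the regulator of epidermal identity, stayed below the floor on all 4, at 4.26 or less, and so did the keratin Krt15, at 4.17 or less.

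The collagen-binding subunits were represented by Itga1, which pairs with β1 and binds collagen IV and fibrillar collagens. Itga1 had levels of 2.77 on the EpCAM-positive array, 3.52 on the EpCAM-negative array, 8.75 on the Klf4-negative array and 4.37 on the Oct4-negative array. It reached the floor in Oct4+Klf4-negative cells alone, 20.8-fold above Oct4-negative cells, and was 37.5-fold lower in Oct4+Klf4+EpCAM-negative cells than in Oct4+Klf4-negative ones. The second probe set of Itga1 gave 2.01, 2.88, 7.33 and 3.09 in the same order of arrays, with log2 differences of 4.24 at the Oct4 step and -4.45 at the Klf4 step. Pelo, a gene of ribosome rescue that overlaps Itga1, was also higher at the Oct4 step, by a log2 difference of 1.11, with -0.77 at the Klf4 step.

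The neighbouring gene of Itga1 on chromosome 13 is Itga2, another collagen receptor subunit. Itga2 lay between 2.69 and 2.91, below the background ceiling on all 4 arrays, so that the neighbours had unlike readings. Itga10, a collagen receptor of cartilage, lay between 3.27 and 3.57, also below the floor. The collagen genes that encode ligands of these receptors ran another way. Of 6 such genes at the floor, 0 were higher and 2 lower at the Oct4 step. All 6 were lower at the Klf4 step (median log2 difference -2.67) and between the ends (-4.63). Over all genes at the floor, 4.84% were lower at the Oct4 step, 6.88% at the Klf4 step and 10.8% between the ends. Col1a1 and Col1a2, the chains of collagen I, were 9.59-fold and 4.79-fold lower in Oct4+Klf4-negative than in Oct4-negative cells, while their receptor chain Itga1 was higher there. Col3a1, of collagen III, had levels of 6.41, 8.51, 11.13 and 11.14 on the EpCAM-positive, EpCAM-negative, Klf4-negative and Oct4-negative arrays.

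Promoter sequence is shown for Itga1 and Itga8, which shared the peak in Oct4+Klf4-negative cells, for Itga2, the neighbour at background, and for Itga4, which was highest in Oct4-negative cells. RefSeq (GRCm38.p6) promoter entries were given for 22 of the 34 members. Each window holds the bases before the annotated gene start, read 5′ to 3′ on the gene's strand, and capitals mark matches on either strand to 5 motifs: the GC box (GGGCGG), the CACCC box (CACCC) bound by Klf-family factors, the AP-1 site (TGANTCA), the TATA box (TATAAA) and the CCAAT box (CCAAT).
Itga1, chr13:115101965-115102214, minus strand: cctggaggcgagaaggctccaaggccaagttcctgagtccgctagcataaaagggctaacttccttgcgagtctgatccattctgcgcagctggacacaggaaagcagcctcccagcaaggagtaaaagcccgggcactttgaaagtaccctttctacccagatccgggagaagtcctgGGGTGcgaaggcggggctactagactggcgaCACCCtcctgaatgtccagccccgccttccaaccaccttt
Itga8, chr2:12301986-12302194, minus strand: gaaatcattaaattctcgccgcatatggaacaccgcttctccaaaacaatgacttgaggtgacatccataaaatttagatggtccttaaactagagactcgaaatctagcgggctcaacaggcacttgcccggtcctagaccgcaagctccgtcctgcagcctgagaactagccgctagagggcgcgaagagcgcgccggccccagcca
Itga2, chr13:114932101-114932350, minus strand: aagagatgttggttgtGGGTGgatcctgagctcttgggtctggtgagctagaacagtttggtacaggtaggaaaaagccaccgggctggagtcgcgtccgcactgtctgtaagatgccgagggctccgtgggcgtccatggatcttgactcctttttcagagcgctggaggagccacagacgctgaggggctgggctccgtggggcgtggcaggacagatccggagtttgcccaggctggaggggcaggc
Itga4, chr2:79255176-79255425, plus strand: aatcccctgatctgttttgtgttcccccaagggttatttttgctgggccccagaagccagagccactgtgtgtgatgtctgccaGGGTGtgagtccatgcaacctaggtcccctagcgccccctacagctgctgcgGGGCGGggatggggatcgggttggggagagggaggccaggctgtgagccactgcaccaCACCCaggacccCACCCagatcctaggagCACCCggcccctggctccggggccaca

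The CACCC letters occurred 2 times in the Itga1 window, 1 time in that of Itga2 and 4 times in that of Itga4, each 250 bases long, and 52% of 32851 promoter windows of that length hold them at least once. The Itga8 window, 209 bases long, held none of the 5 motifs, and 46.1% of windows of that stretch hold a CACCC match. A GC box stood in the Itga4 window alone, where 32.7% of all windows hold one. No window of the 4 held an AP-1, TATA or CCAAT match, which 6.75%, 12.4% and 33.8% of 250-base windows do. These are matches of letters in a short window, and the windows of the genes with a shared peak had no motif of the 5 in common.

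Among the RGD-binding subunits, Itga8 varied most. Itga8 pairs with β1 and is known as the receptor of nephronectin in the developing kidney and in mesenchyme. Its levels were 3.82 on the EpCAM-positive array, 5.06 on the EpCAM-negative array, 9.38 on the Klf4-negative array and 6.68 on the Oct4-negative array. It was 6.51-fold higher at the Oct4 step, 20.0-fold lower at the Klf4 step and 2.36-fold lower at the EpCAM step, where it was the only member called. The second probe set gave log2 differences of 2.82 at the Oct4 step and -4.23 at the Klf4 step.

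The nephronectin gene Npnt had levels of 8.66 on the EpCAM-positive array, 8.99 on the EpCAM-negative array, 9.79 on the Klf4-negative array and 6.93 on the Oct4-negative array. Receptor chain and ligand were both highest in Oct4+Klf4-negative cells, and Npnt was 7.28-fold higher at the Oct4 step. At the Klf4 step Itga8 was lower by a log2 difference of -4.32, and Npnt differed by -0.80, short of the size rule. Between the ends Npnt was 3.31-fold higher and Itga8 7.24-fold lower.

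The other RGD-binding α chains were short of the size rule in every comparison by their brightest probe sets. Itgav, the αv subunit that pairs with 5 of the β chains, had levels of 8.36, 8.52, 9.13 and 9.10 on the EpCAM-positive, EpCAM-negative, Klf4-negative and Oct4-negative arrays. Its 3 probe sets at the floor gave log2 differences between the ends of -0.74, -1.12 and -0.95, the second past 2-fold. Itga5, the fibronectin receptor subunit, lay between 7.88 and 8.30, the narrowest range of any member at the floor, 0.42. Itga2b, the platelet subunit, lay between 4.74 and 5.67, close to the floor. Of 6 platelet and megakaryocyte markers on the array, 1, 2, 0 and 1 reached the floor on the EpCAM-positive, EpCAM-negative, Klf4-negative and Oct4-negative arrays, with summed linear levels of 82.5, 88.2, 67.0 and 79.3, and Pf4, Gp5 and Gp6 were at or below the background ceiling on all 4. Gp1bb was the one marker of this list called at a step, 2.15-fold higher at the Klf4 step.

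The β partners of αv went separate ways. Itgb3, which makes the vitronectin receptor with αv, had levels of 6.38 on the EpCAM-positive array, 5.39 on the EpCAM-negative array, 3.46 on the Klf4-negative array and 4.59 on the Oct4-negative array. It was 3.80-fold higher at the Klf4 step and 3.47-fold higher between the ends, and 2.18-fold lower at the Oct4 step. The second Itgb3 probe set, at 4.80, 3.87, 3.68 and 4.05 in the same order of arrays, gave a log2 difference of 0.18 at the Klf4 step where the brightest gave 1.93, so the probe sets differ in size there. Itgb5, the other vitronectin receptor chain, stayed between 7.96 and 8.52. The epithelial chain Itgb6 and the chain Itgb8, both of which release latent TGF-β in other settings, lay at or below the background ceiling, at 2.60 or less and 2.67 or less.

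The genes of RGD and LDV ligands were mostly lower with Klf4. Of 9 at the floor, 3 were higher and 2 lower at the Oct4 step, 0 higher and 6 lower at the Klf4 step (median log2 difference -2.05), and 1 higher and 3 lower at the EpCAM step. Between the ends, 8 were lower and 1, Npnt, was higher. Of all genes at the floor, 8.43%, 15.3% and 4.89% were called at the Oct4, Klf4 and EpCAM steps, and 22.6% between the ends. Fn1, fibronectin, the main ligand of α5β1, had levels of 8.14, 9.04, 10.08 and 10.86 on the EpCAM-positive, EpCAM-negative, Klf4-negative and Oct4-negative arrays and was 6.61-fold lower between the ends, while Itga5 differed by 1.21-fold. Tnc, tenascin C, was 45.9-fold lower between the ends, and Thbs1, thrombospondin, was 13.9-fold lower at the Klf4 step. Vtn, vitronectin, stayed below the floor, with a highest level of 2.98.

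The β1 chain, partner of 12 of the α subunits, had levels of 8.62, 8.96, 9.56 and 9.55 on the EpCAM-positive, EpCAM-negative, Klf4-negative and Oct4-negative arrays (Itgb1). It was 1.90-fold lower between the ends and short of the size rule at every step. Its 3 probe sets at the floor gave log2 differences between the ends of -0.93, -1.02 and -0.99, on both sides of the 2-fold line.

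The LDV-binding subunit Itga4, a receptor for fibronectin and the vascular adhesion molecule Vcam1, was highest in Oct4-negative cells. Its levels were 3.60 on the EpCAM-positive array, 3.70 on the EpCAM-negative array, 4.12 on the Klf4-negative array and 5.48 on the Oct4-negative array. It reached the floor on the Oct4-negative array alone, and Oct4+Klf4-negative and Oct4+Klf4+EpCAM+ cells were 2.57-fold and 3.69-fold lower than Oct4-negative cells. Vcam1 was also highest there, with 4.77, 4.74, 5.67 and 6.17 on the EpCAM-positive, EpCAM-negative, Klf4-negative and Oct4-negative arrays, and was 2.64-fold lower between the ends. Itga9, the related tenascin receptor chain, stayed below the floor, at 3.56 or less.

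Itgb7, which in lymphocytes pairs with α4 or αE for homing to the gut, was higher with Klf4. Its levels were 7.76 on the EpCAM-positive array, 7.16 on the EpCAM-negative array, 5.28 on the Klf4-negative array and 5.20 on the Oct4-negative array, 3.68-fold higher at the Klf4 step and 5.92-fold higher between the ends. On the arrays where Itgb7 was high, both of its known partners were below the floor: Itga4 at 3.60 and 3.70, and Itgae at 3.37 and 3.51. The leukocyte chains Itgal, Itgam, Itgax and Itgb2 stayed below the floor throughout, the highest being Itgb2 at 3.97 in Oct4-negative cells.

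Of 10 leukocyte and macrophage markers, 4, 4, 2 and 3 reached the floor on the EpCAM-positive, EpCAM-negative, Klf4-negative and Oct4-negative arrays, with summed linear levels of 599.7, 949, 169 and 328. Laptm5, a lysosomal protein of blood cells, had levels of 8.38, 9.50, 4.69 and 3.81 on the same arrays and was 28.0-fold higher at the Klf4 step. Coro1a, an actin-binding protein of leukocytes, had levels of 6.50, 5.91, 4.45 and 3.87 on the EpCAM-positive, EpCAM-negative, Klf4-negative and Oct4-negative arrays, the same order as Itgb7, and was 2.75-fold higher at the Klf4 step and 6.17-fold higher between the ends. Cd14, a receptor of monocytes, was 3.13-fold higher at the Klf4 step and 2.68-fold lower at the Oct4 step. Between the ends Cd14 differed by a log2 difference of 0.06. Cd68, a macrophage marker, was highest in Oct4-negative cells, with 6.48, 6.32, 5.95 and 7.76 on the same arrays. It was 3.52-fold lower at the Oct4 step and 2.43-fold lower between the ends. Ptprc, the pan-leukocyte phosphatase, Lyz2, Adgre1 and Tyrobp were below the floor on all arrays, at 3.64 or less. The part of this list in the Itgb7 values was not tested.

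**Figure D3:**
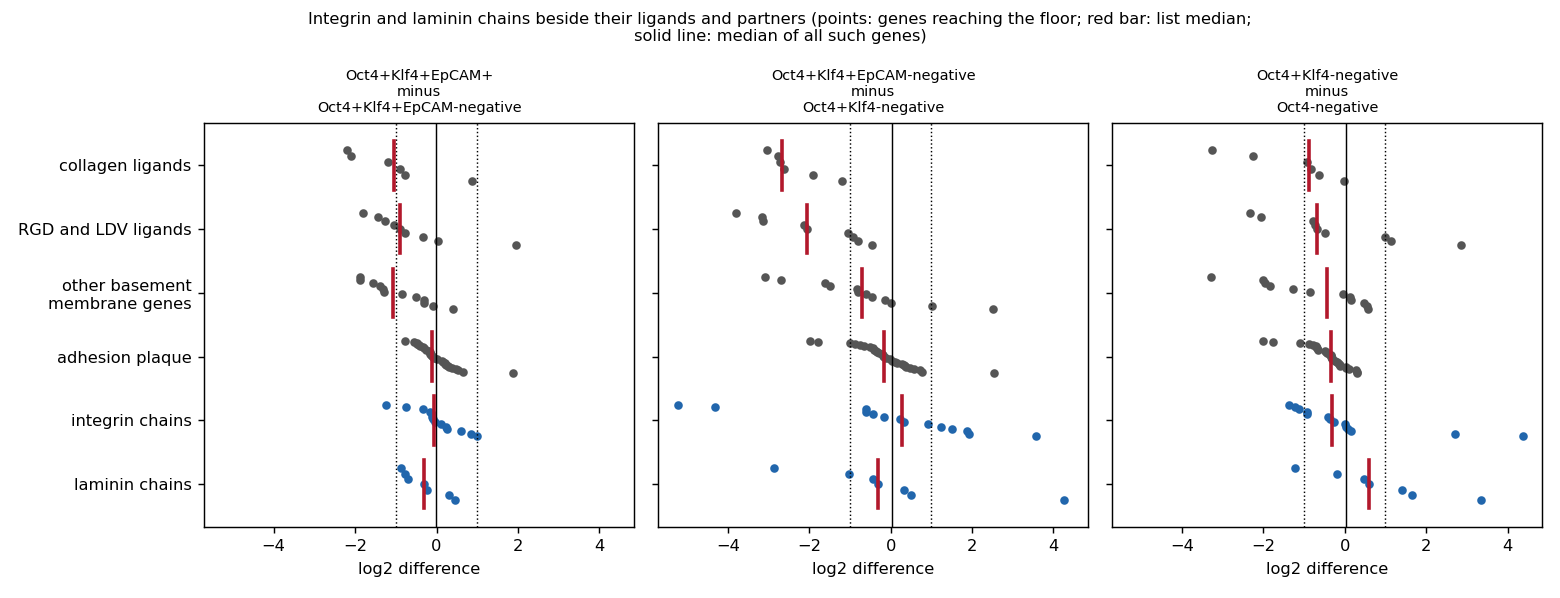
Log2 differences (horizontal axis) at the EpCAM, Klf4 and Oct4 steps for integrin chains, laminin chains and the lists of their ligands and partners, 1 point per gene reaching the floor and a red bar at each list's median. Collagen ligands lie to the left at the Klf4 step (median -2.67), while integrin chains spread to both sides.

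Among the laminin chains, Lama3 and Lama2 varied most, with log2 ranges of 6.36 and 3.72 over the 4 arrays. Lama4 and Lama5 had ranges of 1.72 and 1.23, beside 1.20 for Lamb1, 1.35 for Lamb2 and 0.66 for Lamc1. Lama3, the α chain of the laminins of epidermis and other lining epithelia, had levels of 9.56 on the EpCAM-positive array, 9.11 on the EpCAM-negative array, 4.86 on the Klf4-negative array and 3.20 on the Oct4-negative array. It was 3.15-fold higher at the Oct4 step, 19.0-fold higher at the Klf4 step and 82.1-fold higher between the ends, the largest difference of any member. This rests on 1 probe set that can read several transcripts. The second Lama3 probe set stayed below the floor on all 4 arrays, between 3.75 and 4.18, and gave a log2 difference of 0.14 at the Klf4 step.

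Lama2, the α chain of muscle and nerve basement membranes, was lower at the Klf4 step, where Lama3 was higher. At the Oct4 step both were higher, and between the ends Lama2 differed by -0.37, short of the size rule. Its levels were 4.40 on the EpCAM-positive array, 5.27 on the EpCAM-negative array, 8.12 on the Klf4-negative array and 4.77 on the Oct4-negative array. It was thus high in Oct4+Klf4-negative cells alone, 10.2-fold above Oct4-negative cells, and 7.24-fold lower in Oct4+Klf4+EpCAM-negative cells. Of 6 Schwann and neural markers on the array, 5, 4, 4 and 2 reached the floor on the EpCAM-positive, EpCAM-negative, Klf4-negative and Oct4-negative arrays, with summed linear levels of 1118, 748, 1080 and 497. Nefl, a neurofilament chain, had levels of 5.80, 6.53, 9.46 and 3.80 on the same arrays, was 50.7-fold higher at the Oct4 step and 7.62-fold lower at the Klf4 step, and so peaked on the Klf4-negative array as Lama2 did. Mbp, a myelin protein, peaked there too, 9.81-fold higher at the Oct4 step and 2.09-fold lower at the Klf4 step. Tubb3, a neuronal tubulin, went the other way, with 9.71, 8.84, 4.53 and 4.83 on the same arrays, 19.8-fold higher at the Klf4 step. Nes was highest in Oct4-negative cells, with 5.95, 6.33, 7.10 and 8.66 in that order. It was 2.95-fold lower at the Oct4 step and 6.57-fold lower between the ends. Sox10 stayed near the floor, between 4.49 and 4.67. The part of these markers in the values of Lama2, Itga1 and Itga8 was not tested.

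Lama4, the α chain of vessel and mesenchymal laminins, had levels of 8.19, 8.97, 8.65 and 7.25 on the EpCAM-positive, EpCAM-negative, Klf4-negative and Oct4-negative arrays and was 2.63-fold higher at the Oct4 step. Of 10 endothelial markers, 4, 4, 2 and 2 reached the floor in that order, with summed linear levels of 888, 899, 408 and 285, and Kdr, Emcn and Vwf lay at or below the background ceiling on all 4. Tek, an angiopoietin receptor, had levels of 8.74, 9.22, 7.49 and 3.33 on the same arrays and was 17.9-fold higher at the Oct4 step and 42.4-fold higher between the ends. Cldn5 and Flt1, a tight-junction protein and a VEGF receptor, were 17.8-fold and 3.67-fold higher between the ends, and Egfl7 was lower there by a log2 difference of -1.03. The part of this list in the Lama4 values was not tested. Lama5, the most widespread laminin α chain of adult epithelia and of the early embryo, was at 8.83, 8.53, 8.02 and 9.24 on the EpCAM-positive, EpCAM-negative, Klf4-negative and Oct4-negative arrays and was 2.34-fold lower at the Oct4 step. Lama4 was therefore lowest and Lama5 highest in Oct4-negative cells. Lama1, the α chain of the earliest embryonic basement membranes, stayed below the floor, at 3.60 or less. Of 10 primitive and parietal endoderm markers, 3, 3, 2 and 3 reached the floor on the EpCAM-positive, EpCAM-negative, Klf4-negative and Oct4-negative arrays, with summed linear levels of 742, 1418, 2787 and 2979, and Sox17, Sox7, Foxa2 and Afp were at or below the background ceiling on all 4. Sparc, a matrix protein that fibroblasts also make, was at 8.21, 9.89, 11.28 and 11.32 on the same arrays.

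The β and γ chains that most laminins share differed less than Lama2 and Lama3, with 2 of them called lower in 1 comparison each. Lamb1 had levels of 8.86 on the EpCAM-positive array, 9.57 on the EpCAM-negative array, 9.87 on the Klf4-negative array and 10.06 on the Oct4-negative array, and was 2.30-fold lower between the ends. Lamb2 was at 6.33, 6.64, 7.67 and 7.19 in the same order and was 2.04-fold lower at the Klf4 step, just past the size rule. Lamc1, the γ chain of most laminins, stayed between 9.52 and 10.18. Lamb3, the β chain that joins α3 in the laminin of skin, had levels of 4.07, 3.43, 2.58 and 2.97 on the EpCAM-positive, EpCAM-negative, Klf4-negative and Oct4-negative arrays, below the floor on each. Lamc3 was also below it, at 3.74 or less.

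The other genes of basement membranes were lower in Oct4+Klf4+EpCAM+ cells, unlike Lama3. Of 12 at the floor, 0 were higher and 5 lower at the Oct4 step, 2 higher and 4 lower at the Klf4 step, and 0 higher and 5 lower at the EpCAM step. Between the ends 10 were lower and 1, Col15a1, was higher (median log2 difference -2.46). The shares called over all genes at the floor were 8.43%, 15.3% and 4.89% at the Oct4, Klf4 and EpCAM steps, and 22.6% between the ends. Col4a1 and Col4a2, the main chains of collagen IV, were lower between the ends by log2 differences of -3.46 and -4.26, and Nid2, one of the nidogens that bridge laminin and collagen IV, was 14.3-fold lower. Nid1, the other nidogen, which binds the γ1 chain, had levels of 7.13, 7.21, 7.21 and 9.17 on the EpCAM-positive, EpCAM-negative, Klf4-negative and Oct4-negative arrays, so that its 3.89-fold difference lay at the Oct4 step. The collagen IV chain Col4a5 was 8.49-fold lower at the Klf4 step.

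Matching chains were set side by side by whether each reached the floor, since levels of different probe sets cannot be compared. Of 22 integrin heterodimers with both chains on the array, 9 had both at the floor on the EpCAM-positive array, 10 on the EpCAM-negative array, 8 on the Klf4-negative array and 11 on the Oct4-negative array. The pairs α3β1, α5β1, α6β1, αvβ1, αvβ5 and α6β4 were among them on every array. The collagen receptor α1β1 had both chains at the floor in Oct4+Klf4-negative cells alone, α7β1 in both Klf4-positive fractions alone, and α4β1 and α4β7 in Oct4-negative cells alone. The pair α8β1 dropped out in Oct4+Klf4+EpCAM+ cells, and αvβ3 in Oct4+Klf4-negative cells.

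Of 13 laminin trimers with all chains on the array, 6, 8, 8 and 6 had every chain at the floor on the EpCAM-positive, EpCAM-negative, Klf4-negative and Oct4-negative arrays. Laminins 411, 421, 511 and 521 were among them on all 4 arrays. Those with the α3 chain, laminins 311 and 321, were complete on the 3 Oct4-positive arrays and not on the Oct4-negative one. Those with the α2 chain, laminins 211 and 221, were complete on the other 3 arrays and not on the EpCAM-positive one, where Lama2 was at 4.40. These are transcripts at the floor and do not measure assembled protein.

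Inside the cell, the genes of the adhesion plaque, which joins integrin tails to actin, were called about as often as all genes at each step. Of 30 at the floor, 0 were higher and 3 lower at the Oct4 step, and 1 higher and 3 lower at the Klf4 step. At the EpCAM step 1 was higher and 0 lower, and between the ends 2 were higher and 11 lower (median log2 difference -0.51). The called shares were 10%, 13.3% and 3.33% at the Oct4, Klf4 and EpCAM steps, where those of all genes were 8.43%, 15.3% and 4.89%. Between the ends the share was 43.3%, where that of all genes was 22.6%. Tgfb1i1, a paxillin relative known as Hic-5, was at least 6.79-fold lower between the ends and 3.99-fold lower at the Oct4 step. The kinase gene Src and Zyx, which encodes zyxin, were 3.97-fold and 3.46-fold lower at the Klf4 step. Tns1, a tensin that binds β integrin tails, went against the list and was 5.78-fold higher at the Klf4 step, and Fermt3, the kindlin of blood cells, was 3.66-fold higher at the EpCAM step. Tln1, the integrin activator talin, and Vcl, vinculin, were 2.10-fold and 3.14-fold lower between the ends, beside a 1.90-fold difference of Itgb1.

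The label of the cells was read against 9 fibroblast markers on the array. On the EpCAM-positive, EpCAM-negative, Klf4-negative and Oct4-negative arrays, 7, 8, 8 and 8 of them reached the floor, with summed linear levels of 2796, 5623, 10293 and 12954. The marker Pdgfra stayed below the floor, at 3.15 or less. Single markers differed from that order: Postn and Thy1 were highest on the Klf4-negative array, at 10.61 and 9.81, as Itga1, Itga8 and Lama2 were, and Dcn was highest on the EpCAM-positive array, at 10.98. The summed level had the reverse order to that of Itgb4, and its part in the integrin and laminin values was not tested.

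Where several probe sets of a member reached the floor, they gave differences of the same sign for each called member: 7 of 7 at the Oct4 step, 4 of 4 at the Klf4 step, 1 of 1 at the EpCAM step and 4 of 4 between the ends. Over the 14 members with such probe sets, the median SD of their log2 differences was 0.19, 0.12, 0.09 and 0.09 in the same order of comparisons, and over all 5708 such genes it was 0.17, 0.17, 0.12 and 0.18. The widest spread was that of Itgb3 at the Klf4 step, with an SD of 1.23. This spread holds no variation between cultures or sorts. Itga7, Itgb4, Itgb7, Lama2 and Lamb2 had a single probe set each. The called member closest to the 2-fold line was Lamb2 at the Klf4 step (-1.03), and the closest one short of it was Itgb3 at the EpCAM step (0.996).

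**Figure D4:**
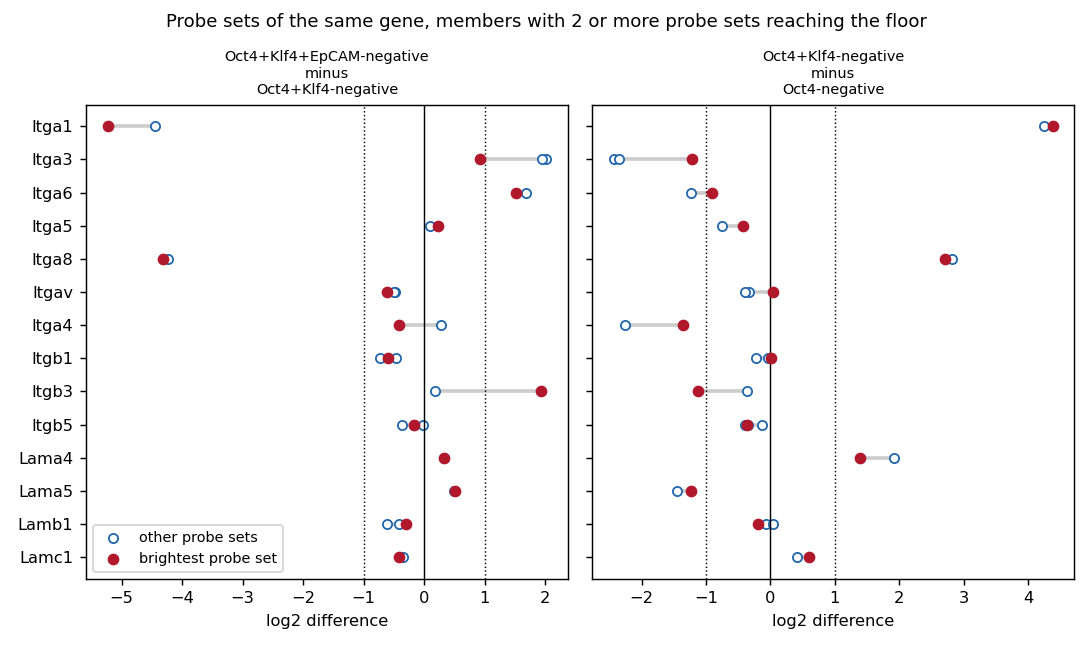
Log2 differences (horizontal axis) at the Klf4 and Oct4 steps for each probe set reaching the floor, for the 14 members with several of them, with the brightest probe set filled. Itga1 and Itga8 keep their large differences in both of their probe sets, whereas the probe sets of Itgb3 lie at 1.93 and 0.18 at the Klf4 step.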

How the data were processed

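RNA of 4 sorted fractions was recovered from fixed cells, amplified by a whole-transcriptome kit and hybridised to 1 single-channel array each, per the labels' protocols. The authors deposited log2 levels for 45101 probe sets, made with RMA (version not given in the sources used here) per the submitters' processing notes. RMA subtracts background and equalizes the arrays, so a shift common to all transcripts is removed, and fixation and amplification can alter single transcripts. Of the probe sets, 64 were controls, 34945 named 1 gene in the platform annotation, 932 several and 9160 none. All 34 members matched the RefSeq table (GRCm38.p6), used for names and neighbours. Tables and figures were made with Python 3.11.15, pandas 2.3.3, numpy 2.4.6 and matplotlib 3.10.9. The calling of genes was also tested on simulated data with known differences. With 1 array per fraction there is no replicate, test or interval, and the number of arrays limits precision.

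The naming rule was to give every member called in a comparison, its partner chains and members with disagreeing probe sets in full. Itga5, Itga2b, Itgae, Lama1, Lamc1 and Lamc3 fell under it and were given by range or in part. From 7 lists of other genes up to 4 members past the size rule were named per comparison, and 8 marker lists were read. Npnt, Fn1, Plec, Dst, Cd151, Col17a1, Krt5, Col3a1, Vtn, Vcam1, Tln1, Vcl, Pelo and single markers were named outside that rule, with their values seen, as partners, ligands or neighbours. The members, lists and motifs were chosen with earlier results of these data known. Alternatives were another choice of probe set, another floor and arrays centred on their medians.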

Additional observations from a re-analysis of the deposited data

How the results depend on the processing

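Another floor changes which members are called and not their differences: of the 28 called member differences, 18 remained called with the floor at the 75th percentile (6.87). All 28 kept their direction and their call with arrays centred on their medians. With the mean of a gene's probe sets all 28 kept their direction and 23 their call, and with only probe sets that do not read several transcripts 24 could be given, all 24 kept their direction and 21 their call. In that last setting Lama3 gave 0.29, 0.14 and 0.02 at the Oct4 step, at the Klf4 step and between the ends, from a probe set below the floor, and Itgb4 and Itga7 dropped out, having no other probe set. The median at the Klf4 step was -0.39 in that setting and -0.17 with the higher floor, against 0.23 as reported, with fewer genes in both. Averaging probe sets gave 2 members lower at the Oct4 step and 1 higher at the EpCAM step. Leaving out probe sets that read several transcripts gave 1 higher at the EpCAM step and 2 higher between the ends. The higher floor gave 2 lower at the Oct4 step, 0 lower at the EpCAM step, and 3 higher and 1 lower between the ends, from fewer genes. Without a floor, 6 were lower between the ends and the median there was -0.11. Centring the arrays gave 1 higher at the EpCAM step, Itgb3. No paired analysis was possible because each fraction has 1 array. Probe sets near background, such as Itga2 and Itgb8, have no reliable order.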

Other observations

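Receptors of laminin other than integrins, with the membrane proteins that tie them to the cytoskeleton, were read as a list of 12 genes, 9 of which reached the floor. At the Oct4 step 1 was higher and 1 lower, and at the Klf4 step 0 were higher and 5 lower (median log2 difference -1.06). At the EpCAM step 1 was higher and 0 lower, and between the ends 1 was higher and 4 lower. All genes at the floor were called at shares of 8.43%, 15.3% and 4.89% at the Oct4, Klf4 and EpCAM steps, and 22.6% between the ends. Dmd, dystrophin, which links dystroglycan to actin, had levels of 7.32 on the EpCAM-positive array, 7.79 on the EpCAM-negative array, 9.33 on the Klf4-negative array and 5.77 on the Oct4-negative array. It was 11.8-fold higher at the Oct4 step, as Lama2, whose laminin binds dystroglycan, was 10.2-fold higher, and both were lower at the Klf4 step, by 2.92-fold and 7.24-fold. Sgcd, δ-sarcoglycan of the same complex, was highest on that array too, with 2.48, 3.55, 5.72 and 4.86 on the EpCAM-positive, EpCAM-negative, Klf4-negative and Oct4-negative arrays. Dag1, dystroglycan itself, stayed between 8.19 and 8.61. Sdc4, a syndecan of focal adhesions, was 2.87-fold lower at the Oct4 step, 2.61-fold lower at the Klf4 step and 2.75-fold higher at the EpCAM step.

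Tetraspanins and other proteins that accompany integrins at the membrane had 7 genes on the array, all at the floor. At the Oct4 step 0 were higher and 1 lower, at the Klf4 and EpCAM steps 1 was higher and 0 lower in each, and between the ends 0 were higher and 0 lower. A single gene is 14.3% of the list, where 8.43%, 15.3% and 4.89% of all genes were called at the Oct4, Klf4 and EpCAM steps. Cd9 had levels of 9.08 on the EpCAM-positive array, 8.69 on the EpCAM-negative array, 6.41 on the Klf4-negative array and 8.24 on the Oct4-negative array, lowest where Itga3 and Itga6 were lowest. Cd82 was 2.78-fold higher at the EpCAM step. These genes were named with their values seen, and no test bears on them.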
